A study of Mus musculus with 96 samples.

Results

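The genes described here encode the machinery by which cells of the renal proximal tubule take filtered protein and protein-bound vitamins back from the lumen. All rows whose symbol was Lrp2, Cubn, Amn, Dab2, Lrpap1, Folr1, Fcgrt, Clcn5 or Ocrl were taken from the deposited expression table, which gave 9 of its 54532 genes. The rule takes rows by symbol alone. Each symbol matched a row, and all 9 passed the filter of at least 1 TPM (transcripts per unit of a fixed total, scaled to transcript length) in at least 3 mice.

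Megalin (Lrp2) and cubilin (Cubn) are very large receptors of the brush border that bind albumin, hormones, vitamin carriers and light chains and carry them into the cell. Cubilin has no membrane anchor of its own and is held at the surface by amnionless (Amn). Megalin is helped through the secretory pathway by the receptor-associated protein (Lrpap1) and is linked to the clathrin coat by the adaptor Dab2. Folate receptor alpha (Folr1) binds filtered folate, and Fcgrt encodes the heavy chain of the neonatal Fc receptor, which sorts immunoglobulin G and albumin away from lysosomes. Clcn5 encodes a chloride-proton exchanger of endosomes and Ocrl a phosphoinositide phosphatase of the endocytic pathway. Human mutations in CLCN5 and OCRL cause Dent disease and Lowe syndrome, and both include loss of low-molecular-weight protein into the urine.

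RNA was sequenced from hand-dissected pieces of kidney of male C57BL/6 mice, 6 to 8 weeks old, kept on normal chow with free access to water and given no treatment. The table held 93 samples (87 of tubule and 6 of glomerulus) in 15 groups, which made 53 sets of pieces by mouse number and segment. Each set is counted as 1 mouse, and the labels do not say whether equal numbers in different segments mark 1 animal. The pieces of a set were averaged first, so that n counts mice within a group. The groups were the glomerulus, the first convoluted part of the proximal tubule (PTS1), its straight part in the cortical medullary rays (PTS2) and its end in the outer stripe (PTS3). They went on with the short-loop descending limb (DTL1), the outer medullary and inner medullary stretches of the long-loop descending limb (DTL2 and DTL3) and the thin ascending limb (ATL). The last were the medullary and cortical thick ascending limb (MTAL and CTAL), distal convoluted tubule (DCT), connecting tubule (CNT), and the cortical, outer medullary and inner medullary collecting duct (CCD, OMCD and IMCD). PTS2, CTAL and CCD had 5 mice, ATL and OMCD 4, and the other groups 3. TPM keep no read depth, which is therefore unknown, and in pieces of tissue fewer cells of a type and less RNA per cell cannot be told apart.

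The dissected segments carried the genes that define them. Slc5a2, the glucose transporter of the early proximal tubule, stood at 2792 ± 335 TPM (SD, n = 3) in PTS1, 0.688 ± 0.323 TPM (n = 5) in PTS2 and was listed at 0 in PTS3. Slc7a13, a transporter of the straight part, stood at 4.64 ± 7.89, 2045 ± 59.2 and 1502 ± 245 TPM in the same order. Umod, of the thick limb, reached 36935 ± 1691 TPM in CTAL, and Nphs1, of podocytes, 193 ± 45.3 in glomeruli. Outside the proximal tubule, a list of 12 proximal genes summed to 2137 to 6412 TPM in DTL1 and 1039 to 2907 in DCT, against 76729 to 141719 over the proximal mice. A list of 10 endothelial genes summed to 3515 to 4784 TPM in DTL1, near the 5051 to 5171 of glomeruli. The number of genes at 1 TPM or more was 11474 to 13848 per mouse in the proximal groups but 26044 to 29454 in DTL1, 23597 to 29280 in glomeruli, 20104 to 24123 in DTL2 and DTL3 and 17213 to 20867 in OMCD. Detection was uneven within ATL: mice 2 and 3 had 13949 and 13532 such genes, but mouse 4 had 23465 and mouse 6 had 24647. The part of this wider detection in the values of the 9 genes was not tested.

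Differences were fitted with limma on log2(TPM + 1) over 33793 genes, with Benjamini-Hochberg adjustment over all of them. The fit used 1 spread per gene for all 15 groups, so each SE also reflects the spread of groups outside the comparison. A gene was called when its adjusted p was under 0.05 and its log2 difference at least 1 in size. All 9 genes differed among the 15 groups by limma's moderated F-test, from an adjusted p of 3.36e-33 for Amn to 3.36e-14 for Clcn5, where 93.9% of all genes tested did so. In PTS1 minus PTS2, 4.46% of all genes were called higher and 5.1% lower. In PTS2 minus PTS3 the shares were 3.94% and 0.755%, and in PTS1 minus PTS3 6.14% and 3.97%. In the mean of the 3 proximal groups minus the mean of the 11 other tubule groups they were 4.02% and 19.8%. These splits moved with the scaling: of the calls in proximal minus other tubule, 16.9% were higher as deposited, 44.0% after rescaling by median ratios and 52.7% after quantile normalization. Along the proximal tubule the same shares were 46.6%, 66.2% and 48.7% for PTS1 minus PTS2, 83.9%, 64.7% and 63.4% for PTS2 minus PTS3, and 60.7%, 66.3% and 48.6% for PTS1 minus PTS3. The median log2 difference of all genes in proximal minus other tubule was -0.41 as deposited, -0.23 after median ratio rescaling and -0.04 after quantile normalization, and the differences below are to be read against it.

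The 3 receptor genes Lrp2, Cubn and Amn stood at 16.8 TPM or more in every mouse of PTS1, PTS2 and PTS3 and at 10.6 TPM or less in every other mouse. Megalin messenger RNA was highest in the first segment and dropped toward the last. Lrp2 stood at 109, 99.2 and 114 TPM in the 3 PTS1 mice, at 75.7 to 90.3 with a median of 81 TPM in the 5 PTS2 mice and at 32.3, 32.3 and 38.1 TPM in the 3 PTS3 mice. No mouse of a proximal group overlapped with a mouse of the next. Lrp2 was 1.25 ± 0.24 (SE) log2 units higher in PTS2 than in PTS3 (adjusted p = 0.000103) and 1.62 ± 0.27 higher in PTS1 than in PTS3 (adjusted p = 4.81e-06). The PTS2 minus PTS3 call was lost after quantile normalization (0.79). It was also lost with a pseudocount of 0.1 TPM, where the difference was 1.27 ± 0.54 (adjusted p = 0.13). These SEs rest on the spread of all 15 groups. The SD of log2(TPM + 1) between mice was 0.11 in PTS2 and 0.136 in PTS3, and ran from 0 in MTAL to 0.772 in ATL. The step from PTS1 to PTS2, 0.37 ± 0.24, was not called (adjusted p = 0.361).

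Cubilin messenger RNA was lower and flatter. Cubn stood at 26.5, 20.9 and 33.9 TPM in PTS1, 17.7 to 25.8 with a median of 23.5 TPM in PTS2, and 21.1, 16.8 and 18.4 TPM in PTS3. The ranges of neighbouring proximal groups overlapped. None of its 3 proximal differences was called: PTS1 minus PTS3 was 0.49 ± 0.31 (adjusted p = 0.38), and PTS2 minus PTS3 was 0.28 ± 0.28 as deposited and -0.05 after quantile normalization. Whether the Lrp2 and Cubn gradients differ from each other was not tested. Set side by side per length, the ratio of Lrp2 to Cubn in TPM was 4.08 ± 0.692 (SD, n = 3) in PTS1, 3.66 ± 0.584 (n = 5) in PTS2 and 1.84 ± 0.283 (n = 3) in PTS3. The PTS3 mice, at 1.53 to 2.07, lay below all PTS1 and PTS2 mice, the lowest of which stood at 2.93.

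Amnionless messenger RNA was the most abundant of the 3, and its highest group mean was that of PTS2. Amn stood at 309, 296 and 249 TPM in PTS1, at 424, 418, 499, 252 and 441 TPM in PTS2 and at 166, 130 and 157 TPM in PTS3. PTS2 mouse 5, at 252 TPM, lay among the PTS1 mice, whereas every PTS3 mouse was below every PTS1 and PTS2 mouse. PTS1 minus PTS2 was -0.48 ± 0.29 on the log2 scale and was not called (adjusted p = 0.318). Amn was 1.39 ± 0.29 log2 units higher in PTS2 than in PTS3 (adjusted p = 0.000382), and 0.91 ± 0.33 higher in PTS1 than in PTS3, which passed the p threshold (0.0459) but not the fold. The PTS2 minus PTS3 call was lost after quantile normalization (0.95). It was also lost with a pseudocount of 0.1 TPM, where the difference was 1.40 ± 0.62 (adjusted p = 0.152). The Amn to Cubn ratio in TPM was 11.1 ± 3.44 in PTS1, 18.1 ± 5.33 in PTS2 and 8.07 ± 0.43 in PTS3, so the messenger RNA of the anchor exceeded that of the receptor it holds in every proximal mouse. The longest annotated transcripts differ widely in length, 15460 bases for Lrp2, 11262 for Cubn and 1701 for Amn, and whether length affects such ratios with this cDNA method was not tested.

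**Figure D1:**
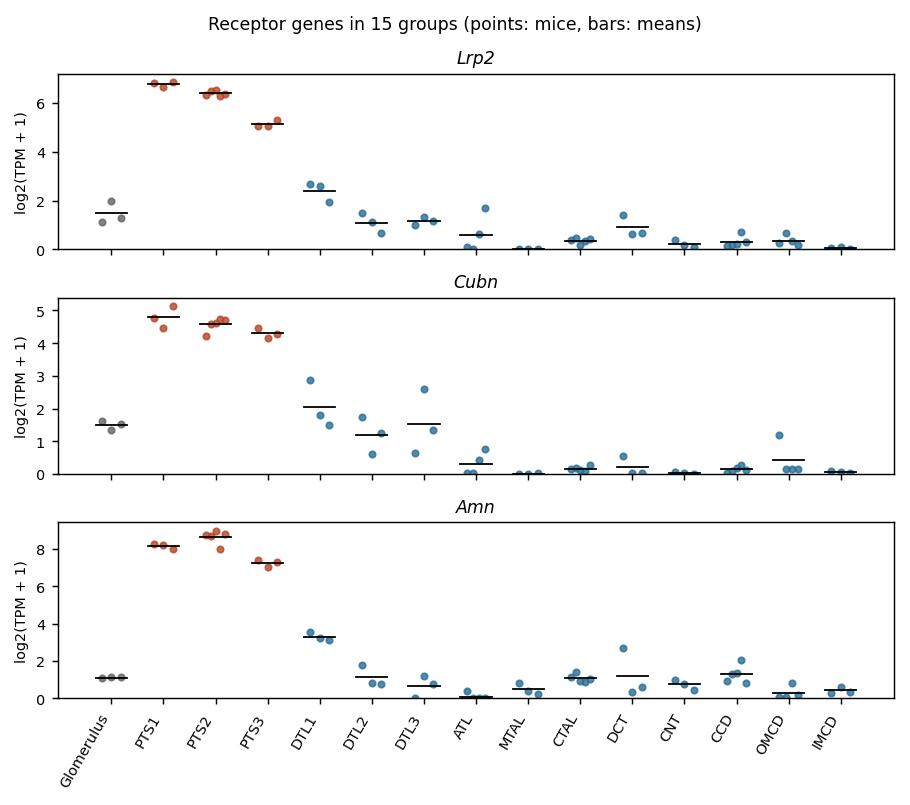
Lrp2, Cubn and Amn as log2(TPM + 1) in each of the 53 mice over the 15 groups (points), with group means (bars). The red proximal points stand above all others in each panel, and DTL1 has the highest mean among the rest.

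Outside the proximal tubule the 3 receptor genes were low. After PTS3, the highest group for each was DTL1, at 4.42 ± 1.37 TPM for Lrp2, 3.52 ± 2.38 for Cubn and 8.9 ± 1.48 for Amn (n = 3 each). For Cubn this mean rested on mouse 1, at 6.25 TPM against 2.5 and 1.82 in the others. The Cubn range of DTL1 overlapped with that of DTL3, whose mean was 2.37 ± 2.36 TPM. As a share of the PTS3 level, DTL1 held 12.9% for Lrp2, 18.8% for Cubn and 5.89% for Amn, where Kap, an abundant proximal transcript, held 3.31% and Slc7a13 3.18%. Glomeruli stood at 1.87 ± 0.946 TPM for Lrp2, 1.83 ± 0.257 for Cubn and 1.17 ± 0.0577 for Amn. In each glomerulus mouse the Amn value rested on 1 of 2 pieces, at 2.2, 2.2 and 2.1 TPM against 0, 0.2 and 0.3 in the other. The proximal list summed to 415 to 511 TPM there, and its part in these values was not tested. In the thick limbs, DCT, CNT, collecting ducts and ATL the group means of Lrp2 and Cubn were all under 1 TPM. In MTAL Lrp2 stood at 0.01 TPM in each of 3 mice, and Cubn at 0.005, 0 and 0.01 TPM. DCT mouse 1 stood apart, with Amn at 5.38 TPM against 0.27 and 0.515 in the other DCT mice, Lrp2 at 1.67 against 0.56 and 0.6, and Cubn at 0.47 against 0.01 and 0.02. This rested on 1 of its 2 pieces, in which Amn stood at 9.78, Lrp2 at 2.48 and Cubn at 0.89 TPM, against 0.99, 0.86 and 0.05 in the other piece. The proximal list of that mouse summed to 2907 TPM against 1066 and 1039.

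A stricter comparison asked whether a gene was higher in each of PTS1, PTS2 and PTS3 than in each of the 12 other groups, taking the weakest of the 36 contrasts. Of all genes tested, 0.731% passed, and 4 of the 9 described here did: Lrp2, Cubn, Amn and Lrpap1. The weakest contrast was PTS3 against DTL1 for the receptor genes, at 2.74 ± 0.27 log2 units for Lrp2 (adjusted p = 1.56e-10), 2.24 ± 0.31 for Cubn (8.93e-07) and 3.94 ± 0.33 for Amn (1.43e-12). For Lrpap1 it was PTS1 against DTL1, at 1.43 ± 0.16 (8.93e-09). The same count of 4 came out under every alternative run and without each mouse in turn. In the broader mean of proximal minus other tubule, Amn was 7.06 ± 0.14, Lrp2 5.42 ± 0.11 and Cubn 4.01 ± 0.13 log2 units higher (adjusted p of 1.86e-37, 1.89e-36 and 6.76e-29). In TPM the proximal mean was 178 times the other tubule mean for Amn, 86.1 times for Lrp2 and 29.9 times for Cubn.

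The DNA just before the start of these 3 genes is shown because they were the most alike in pattern, with a Pearson r over the 53 mice of 0.98 between Lrp2 and Amn, 0.97 between Lrp2 and Cubn and 0.95 between Cubn and Amn. These r values share the same groups of mice and are a description. RefSeq windows on GRCm38.p6 were found for 8 of the 9 genes, Folr1 being without one. The 250 bases before each start were searched on both strands, and the sequences below leave out bases that GENCODE M21 places inside the gene. Lrp2 lies on chromosome 2 at 69424340 to 69586065 on the minus strand, Cubn on chromosome 2 at 13276338 to 13491813 on the minus strand, and Amn on chromosome 12 at 111271095 to 111276426 on the plus strand. The printed windows are chr2:69586066-69586279 (minus strand), chr2:13491877-13492126 (minus strand) and chr12:111270846-111271094 (plus strand), written 5′ to 3′ toward the gene, with motif matches in capitals.
Lrp2: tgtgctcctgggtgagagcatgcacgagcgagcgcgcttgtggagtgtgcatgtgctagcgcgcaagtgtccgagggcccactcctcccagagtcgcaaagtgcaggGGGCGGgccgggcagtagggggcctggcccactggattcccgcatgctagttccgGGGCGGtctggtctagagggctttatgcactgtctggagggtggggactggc
Cubn: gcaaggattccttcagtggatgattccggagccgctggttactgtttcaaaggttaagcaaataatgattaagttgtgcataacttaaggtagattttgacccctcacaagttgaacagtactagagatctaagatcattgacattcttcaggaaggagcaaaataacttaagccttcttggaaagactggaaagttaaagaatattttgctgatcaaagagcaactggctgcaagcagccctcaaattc
Amn: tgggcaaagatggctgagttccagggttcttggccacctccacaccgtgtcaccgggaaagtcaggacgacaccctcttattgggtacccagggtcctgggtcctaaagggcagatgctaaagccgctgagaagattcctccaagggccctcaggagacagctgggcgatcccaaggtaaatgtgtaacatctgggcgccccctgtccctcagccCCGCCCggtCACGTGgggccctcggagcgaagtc
The capitals mark the GC box, read as GGGCGG in Lrp2 and as its reverse complement CCGCCC in Amn, and the E-box CACGTG in Amn. The GC box was present in 32.7% of all 32851 RefSeq windows of this length and the E-box in 6.02%. Of the 8 genes with a window, 5 held the GC box: Amn, Clcn5, Lrp2, Lrpap1 and Ocrl. The other letters searched were GTTAAT, a core of hepatocyte nuclear factor 1 sites (6.43% of windows), AGGTCA, a core of nuclear receptor sites (14% of windows), and TATAAA (12.4% of windows), and none of these was in the 3 windows. Cubn held none of the 5 motifs. Its window was also poorer in G and C, at 39.6%, than those of Lrp2 (66.4%) and Amn (61.2%), where the median of all windows was 52.4%. These shares are of the full 250 bases, which for Lrp2 and Amn include the bases left out of the printed sequences. No motif of the 5 was in all 3 windows, and an absent match says only that these letters are not in this window.

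The adaptor Dab2 and the chaperone Lrpap1 differed between PTS1 and PTS2 in opposite directions. Dab2 stood at 448, 382 and 457 TPM in PTS1, at 179 to 197 with a median of 187 TPM in PTS2 and at 148, 115 and 117 TPM in PTS3. No PTS1 mouse overlapped with PTS2, nor PTS2 with PTS3. Dab2 was 1.18 ± 0.28 log2 units higher in PTS1 than in PTS2 (adjusted p = 0.000917) and 1.77 ± 0.31 higher than in PTS3 (adjusted p = 1.28e-05). Lrpap1 stood at 618, 609 and 664 TPM in PTS1, at 1465 to 1645 with a median of 1537 TPM in PTS2 and at 1271, 1039 and 1233 TPM in PTS3. It was 1.30 ± 0.15 log2 units lower in PTS1 than in PTS2 (adjusted p = 6.7e-10). Against PTS3 the PTS1 level was -0.89 ± 0.16 on the log2 scale, past the p threshold (2.76e-05) but short of the fold. Per length, the ratio of chaperone to megalin was 5.87 ± 0.244 in PTS1, 18.8 ± 0.921 in PTS2 and 34.6 ± 4.11 in PTS3. The ratio of Dab2 to Lrp2 was 3.99 ± 0.127, 2.29 ± 0.233 and 3.73 ± 0.766 in the same order.

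Dab2 was also abundant far from the proximal tubule. It stood at 301, 287, 319, 265 and 301 TPM in CCD, at 287, 339 and 230 TPM in CNT, at 126, 143, 174 and 183 TPM in OMCD and at 112, 124 and 133 TPM in glomeruli. CCD and CNT overlapped with each other and lay below PTS1 but above PTS2. The low end was IMCD, at 0.847, 0.13 and 0.283 TPM, MTAL at 2.44 to 4.57, ATL at 1.45, 1.33, 12 and 1.9, and CTAL at 5.51 to 7.83. A comparison of CNT, CCD and OMCD, where a list of 6 intercalated-cell genes was highest, with MTAL, CTAL and DCT put Dab2 4.58 ± 0.16 log2 units higher (adjusted p = 3.27e-27). In that comparison 6.46% of all genes were called higher and 1.92% lower, and 3 of the 9 were called higher: Dab2, Folr1 and Clcn5. Fcgrt, at -0.76 ± 0.15, was short of the fold as deposited and was called lower after median ratio rescaling (-1.14). As deposited, 77.1% of the calls in that comparison were higher, against 56.8% and 52.1% under the 2 other scalings. The intercalated-cell list summed to 2982 to 5913 TPM in CNT, CCD and OMCD, but also to 793 to 858 in DCT with all 6 genes at 1 TPM or more, against 0 to 15.4 in MTAL and CTAL and 0.497 to 5.46 in IMCD. Dab2 stood at 42.5, 35.1 and 32.8 TPM in DCT. A list of 7 principal-cell genes summed to 12701 to 46814 TPM in the first 3 segments and to 27389 to 31631 in IMCD. The IMCD sum was mostly Aqp2, the water channel, at 27393 ± 2113 TPM. The vasopressin receptor gene Avpr2 stood there at 1011 ± 286 TPM, Aqp4 at 585 ± 41.5 and Aqp3 at 384 ± 110, while the sodium channel subunits Scnn1b and Scnn1g stood at 0.239 ± 0.0976 and 0.358 ± 0.448 TPM and Hsd11b2, an enzyme that inactivates glucocorticoids, at 3.71 ± 2.39. The part of either cell type in the Dab2 level was not tested.

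**Figure D2:**
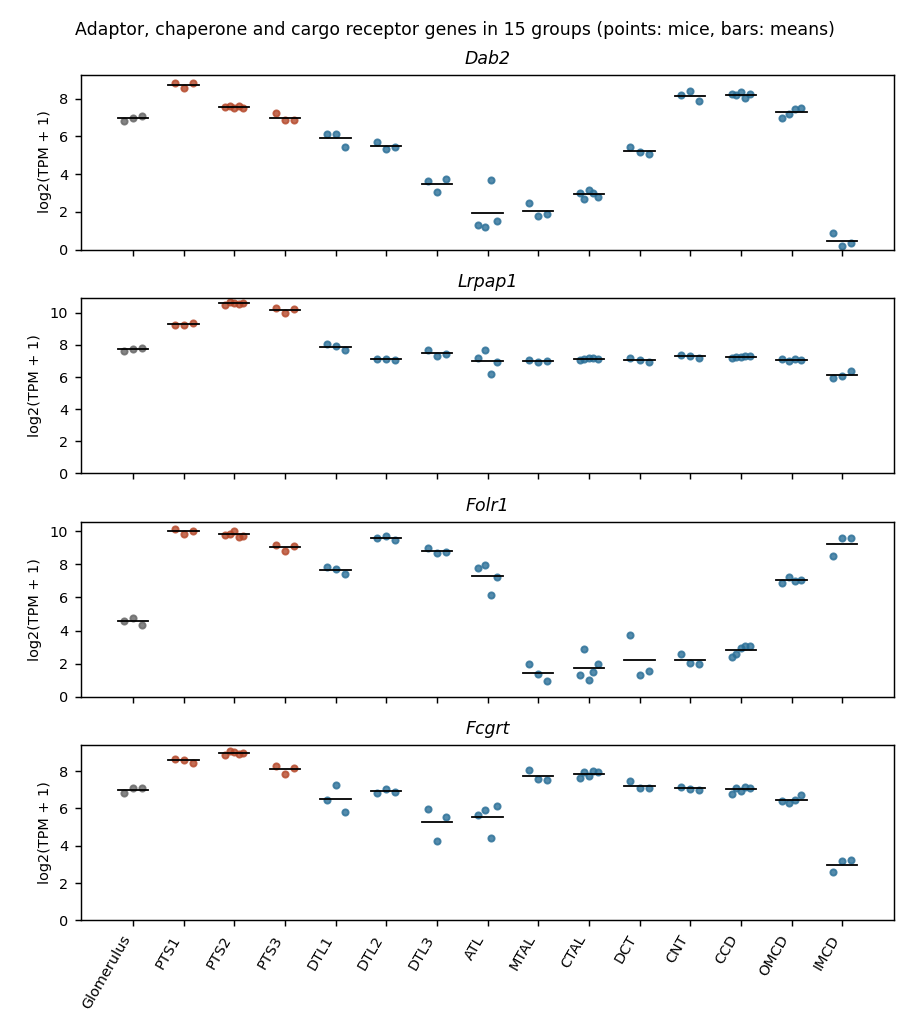
Dab2, Lrpap1, Folr1 and Fcgrt as log2(TPM + 1) by mouse (points) with group means (bars). Dab2 is high again in CNT and CCD, Lrpap1 has means of 68.9 to 235 TPM outside the proximal groups, Folr1 is high at DTL2 and IMCD, and Fcgrt is lowest in IMCD.

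In glomeruli Dab2 was 2.35 ± 0.23 log2 units above the mean of the 11 other tubule groups (adjusted p = 3.94e-12). There 26.1% of all genes were called higher and 4.14% lower, and 86.3% of the calls were higher as deposited, against 78.2% after median ratio rescaling and 49.6% after quantile normalization. Podocyte genes summed to 16077 to 18508 TPM in glomeruli, endothelial genes to 5051 to 5171 and macrophage and leukocyte genes to 586 to 872, and which of these cells carried Dab2 was not tested. The other call was Clcn5, 1.06 ± 0.23 log2 units lower (adjusted p = 9.4e-05), and its difference was short of the fold without glomerulus mouse 3 (-0.93) and with a pseudocount of 5 TPM (-0.75). The mouse number as replicate block also left Clcn5 short of the fold (-0.98). Lrp2 at 0.76 ± 0.20 and Cubn at 0.95 ± 0.23 passed the p threshold only, where the median of all genes was 0.59 and that of the 9 also 0.59. Both were called with a pseudocount of 0.1 TPM (1.86 and 2.51), and Lrp2 was -0.10 after quantile normalization. With the thin limbs left out of the comparison, an alternative chosen after seeing the data, Lrp2 and Cubn were 1.11 and 1.36 and were called.

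Lrpap1 was measured everywhere. From DTL2 to OMCD its group means ran from 125 ± 6.45 TPM in MTAL to 178 ± 26.7 TPM in DTL3, with 235 ± 28.3 in DTL1, 212 ± 14.6 in glomeruli and 68.9 ± 10.6 in IMCD. Below DTL1, neighbours in the order of means overlapped, apart from CCD above CTAL and MTAL above IMCD. It was 2.91 ± 0.07 log2 units higher in the proximal groups than in other tubule (adjusted p = 1.99e-34), a ratio of mean TPM of 7.74.

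Both cargo receptor genes were high in the proximal tubule but not limited to it. Folr1 stood at 1111, 921 and 1042 TPM in PTS1, at 800 to 1033 with a median of 889 TPM in PTS2 and at 586, 442 and 544 TPM in PTS3. PTS3 lay below the other proximal mice. Its PTS1 minus PTS3 difference of 0.98 ± 0.37 was not called (adjusted p = 0.0606), nor was PTS2 minus PTS3 at 0.79 ± 0.33 (adjusted p = 0.13). DTL2 followed at 780, 831 and 706 TPM and overlapped with PTS2. IMCD stood at 356, 767 and 782 TPM, mouse 1 being the low one, and DTL3 at 507, 418 and 426 TPM. ATL stood at 220, 251, 69.3 and 150 TPM, mouse 4 being the low one. From MTAL to CCD the messenger RNA was at a few TPM, with group means from 1.82 ± 0.962 TPM (MTAL) and 2.68 ± 2.12 (CTAL) to 6.24 ± 1.43 (CCD), CNT standing at 3.68 ± 1.25 and DCT at 5.33 ± 6.25. The DCT mean rested on mouse 1 at 12.5 TPM against 1.46 and 1.98, and there on 1 piece at 22.9 TPM against 2.19 in the other. OMCD stood at 130 ± 13.8 TPM, and the comparison of CNT, CCD and OMCD with the thick limb and DCT gave 2.32 ± 0.19 (adjusted p = 5.86e-14). Within those 3 segments OMCD, at 114 to 147 TPM, was far from CNT and CCD, at 2.88 to 7.5.

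The broad contrast of proximal with other tubule put Folr1 4.18 ± 0.16 log2 units higher (adjusted p = 7.08e-27), although PTS3 minus DTL2 alone was -0.57 ± 0.37. That sign depended on the scaling, since the lowest of the 36 contrasts of a proximal with another group was 0.44 after median ratio rescaling. In the glomerulus Folr1 stood at 23 ± 3.43 TPM. Its difference from the other tubule groups was -0.88 ± 0.27 with the thin limbs in the comparison and 0.79 without them, so its direction there followed the groups it was set against. With the thin limbs in, Folr1 was called lower with a pseudocount of 5 TPM (-1.13), after median ratio rescaling (-1.11) and after quantile normalization (-1.65). DTL1 was lower than DTL2, at 225, 206 and 172 TPM, with no overlap.

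Fcgrt stood at 400, 392 and 348 TPM in PTS1, at 462 to 532 with a median of 500 TPM in PTS2 and at 313, 226 and 284 TPM in PTS3. The 3 proximal groups did not overlap in the order PTS2, PTS1, PTS3. PTS2 minus PTS3, 0.88 ± 0.26, passed the p threshold (adjusted p = 0.0166) but not the fold. CTAL at 233 ± 25.6 TPM (n = 5) and MTAL at 214 ± 43.4 (n = 3) came next, and the CTAL range overlapped with PTS3. A list of 10 macrophage and leukocyte genes summed to 546 to 1143 TPM in CTAL and 373 to 672 in MTAL against 75 to 104 in PTS3, and its part in Fcgrt was not tested. DCT, CNT, CCD, glomerulus and DTL2 followed at means of 149 to 120 TPM with overlapping neighbours, and IMCD was last at 4.96, 7.91 and 8.4 TPM. Fcgrt was 2.13 ± 0.13 log2 units higher in proximal than in other tubule (adjusted p = 1.26e-19).

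The endosomal genes Clcn5 and Ocrl did not follow the receptors. Clcn5 was highest in CNT, at 28.8, 22.8 and 29 TPM, and CCD, at 23.7 to 30.6 with a median of 24.7 TPM, then in OMCD at 13.7 to 20.4. PTS1 stood at 13.3, 10.4 and 14.9 TPM, PTS2 at 10.5 to 15 with a median of 13 TPM and PTS3 at 3.57, 3.98 and 5.51 TPM. CNT and CCD overlapped with each other and with no other group, and PTS1, PTS2, DCT and CTAL overlapped. Clcn5 was 1.42 ± 0.27 log2 units higher in PTS2 than in PTS3 (adjusted p = 0.000121) and 1.39 ± 0.31 higher in PTS1 than in PTS3 (adjusted p = 0.000496). With a pseudocount of 5 TPM these fell short of the fold, at 0.96 and 0.93, as did PTS2 minus PTS3 after quantile normalization, at 0.97. PTS1 minus PTS2 was -0.03 ± 0.27 as deposited, with the opposite sign at 0.13 and 0.14 under the other scalings. Proximal minus other tubule was -0.08 ± 0.13 (adjusted p = 0.57), 0.63 after median ratio rescaling and 0.94 after quantile normalization, so its direction depended on the scaling. In CNT, CCD and OMCD it was 1.24 ± 0.16 log2 units above the thick limb and DCT (adjusted p = 1.3e-08), which dropped below the fold, to 0.88 and 0.70, under the other scalings and to 0.96 with a pseudocount of 5 TPM. The intercalated-cell list was highest in the same 3 segments, and its part was not tested.

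Ocrl ran against the receptor genes. It was lowest in the proximal tubule, at 4.5, 4.18 and 6.01 TPM in PTS1, 3.33 to 4.69 with a median of 3.69 TPM in PTS2 and 2.04, 1.82 and 1.02 TPM in PTS3. All proximal mice lay below all others. ATL was highest at 48.2, 42.5, 54.8 and 47.8 TPM and overlapped with no group. Glomerulus, OMCD, DTL3, IMCD and DTL1 followed with overlapping ranges and means of 26.6 ± 0.621 to 24.1 ± 5.55 TPM. Ocrl was 2.19 ± 0.07 log2 units lower in proximal than in other tubule (adjusted p = 4.95e-30), where the median of all genes was -0.41. Within the proximal tubule it was 1.23 ± 0.16 higher in PTS1 than in PTS3 (adjusted p = 3.29e-08), and 0.58, short of the fold, with a pseudocount of 5 TPM. After quantile normalization it was also just short of the fold. PTS2 minus PTS3, at 0.94 ± 0.14, was not called as deposited and was called with a pseudocount of 0.1 TPM (1.38).

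**Figure D3:**
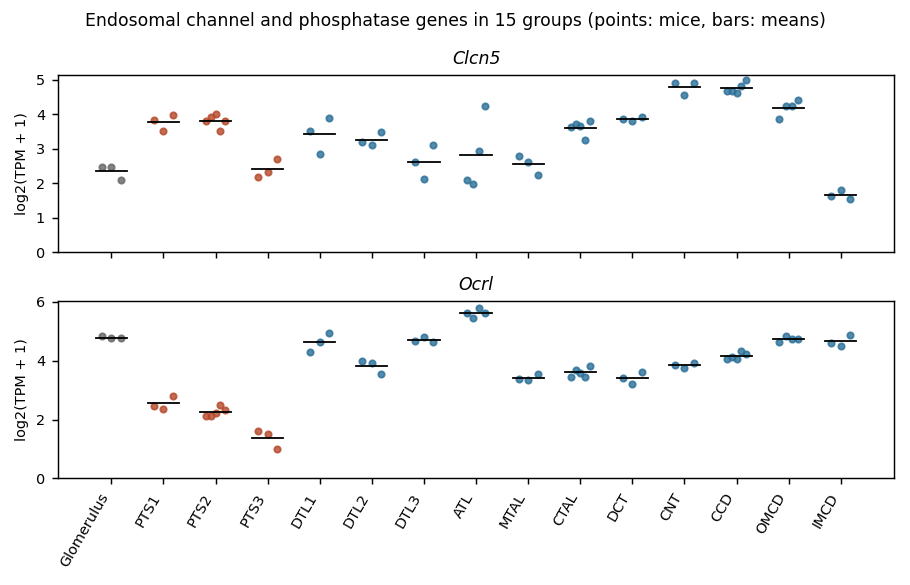
Clcn5 and Ocrl as log2(TPM + 1) by mouse (points) with group means (bars). Clcn5 peaks in CNT and CCD, and Ocrl is lowest in the 3 proximal groups and highest in ATL.

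Counted together, 7 of the 9 genes were called higher and 1 (Ocrl) lower in proximal than in other tubule, against 4.02% and 19.8% of all genes. Their median log2 difference was 3.15, that of all genes -0.41. In PTS1 minus PTS2, where 4.46% of all genes were called higher and 5.1% lower, 1 was called higher (Dab2) and 1 lower (Lrpap1). The median there was 0.19 for the 9 and 0.15 for all genes. In PTS2 minus PTS3, where 3.94% of all genes were called higher, 3 were (Lrp2, Amn and Clcn5) and 0 lower, with a median of 0.88 against 0.00. In PTS1 minus PTS3, where 6.14% of all genes were called higher, 4 were (Lrp2, Dab2, Clcn5 and Ocrl) and 0 lower, with a median of 0.98 against 0.18. These 3 comparisons share their mice. The 3 calls in PTS2 minus PTS3 dropped to 0.79, 0.95 and 0.97 after quantile normalization, short of the fold.

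**Figure D4:**
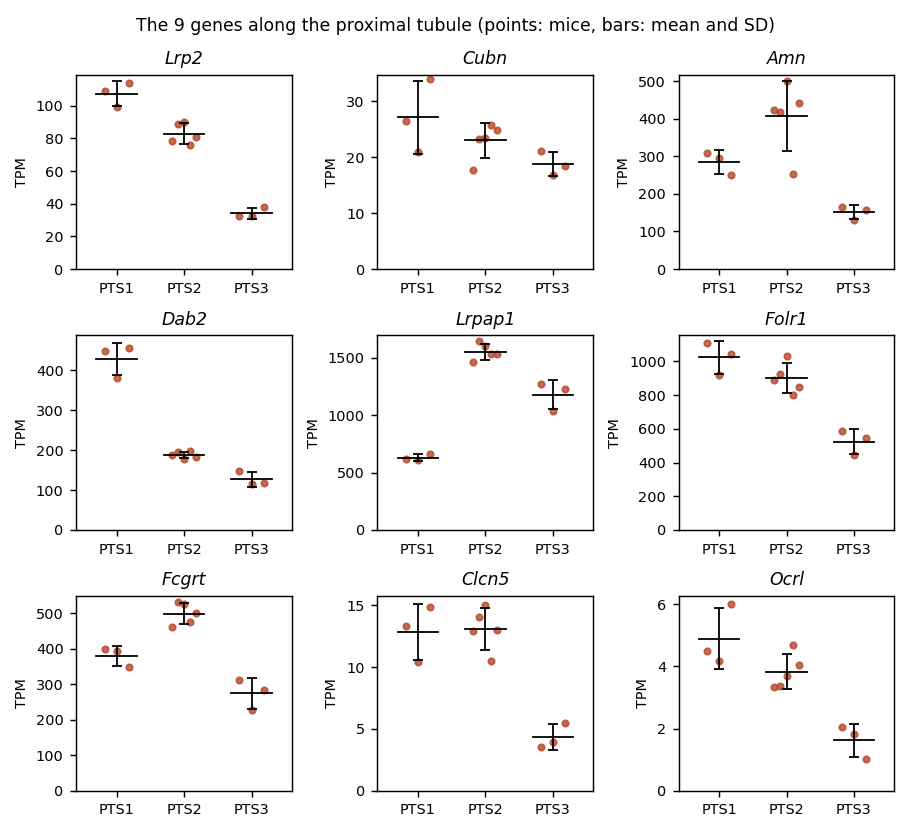
TPM of the 9 genes in PTS1, PTS2 and PTS3, with 1 point per mouse and bars for mean and SD, each axis starting at 0. Lrp2 and Dab2 step down from PTS1 to PTS3, Lrpap1 is lowest in PTS1, and the Cubn points of neighbouring groups overlap.

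**Figure D5:**
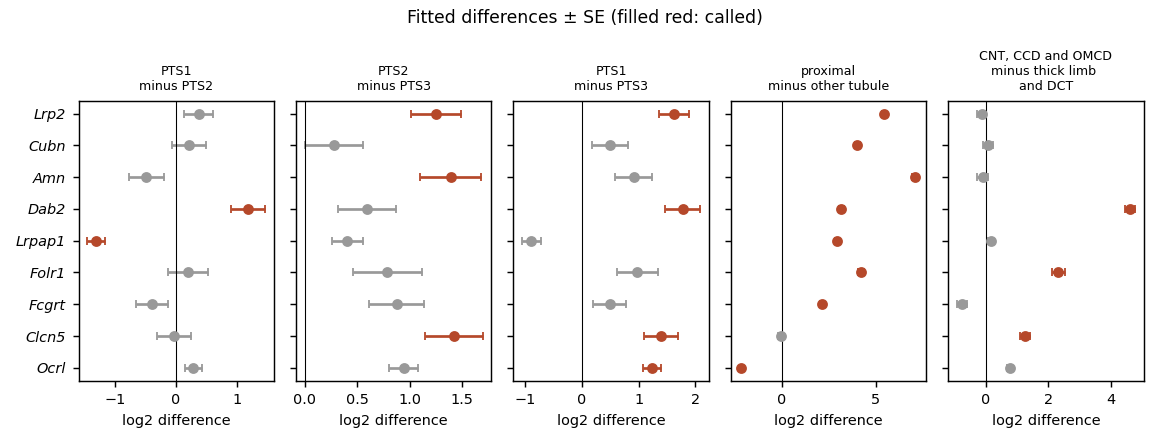
Fitted log2 differences with SE for the 9 genes in 5 comparisons, red where called. Horizontal scales differ between panels, and Ocrl is the gene called lower in proximal than in other tubule.

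Genes with the most similar pattern were ranked by Pearson r of log2(TPM + 1) over the 53 mice among 11938 candidates. The r values are descriptive, since mice of a group share it and the TPM of a sample share 1 total. Lrp2 was nearest to Fmo4, a flavin monooxygenase (r = 0.990), Kcnj15, an inward rectifier potassium channel (0.989), and Lrrc19 (0.986). Cubn was nearest to Abcc2, the apical multidrug exporter (0.975), Fmo4 (0.974) and Kcnj15 (0.970), and Amn to Lrrc19 (0.988), the deacetylase Aadac (0.987) and the transporter Slc6a20b (0.985). Lrpap1 was nearest to Pecr (0.967), Khk, the fructose kinase (0.966), and Nlrp6 (0.962). Dab2 had looser matches in Ndrg1 (0.882), Slc19a3, a thiamine transporter (0.862), and Acot6 (0.837), as did Folr1 in Gramd1b (0.906), the potassium channel Kcnk5 (0.903) and Bid (0.901). Fcgrt was nearest to Selenop, the plasma selenium carrier (0.931), Selenbp1 (0.922) and Sord (0.919). Clcn5 was nearest to Car12, a carbonic anhydrase (0.874), Rnf152 (0.859) and Atp6v0a4, a proton pump subunit of intercalated cells (0.808), and Ocrl to Map4k5 (0.972), Scx (0.949) and Rhbdl2 (0.940). Among the 9 themselves, r ran from 0.94 for Amn with Lrpap1 to -0.79 for Amn with Ocrl, apart from the receptor pairs given above.

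Coat, endosome and other genes that serve uptake were counted in the same comparison of proximal with other tubule. Of 18 genes listed as clathrin coat and adaptors, 0 were called higher and 6 lower in proximal than in other tubule, with a median log2 difference of -0.96. Amotl1 and Sh3bgrl3 on that list are not known as coat or adaptor genes, and without them 0 of 16 were called higher and 4 lower (median -0.95). Of 23 early endosome and recycling genes, 3 were called higher and 4 lower (median -0.31), and of 13 relatives of megalin in the LDL receptor family and their chaperone 0 and 3 (median -0.92). For lysosomal genes the counts were 5 and 3 of 15, for ligands 6 and 2 of 15, for vitamin uptake partners 4 and 1 of 9, for other scavenger receptors 2 and 4 of 11, and for endolysosomal ion and cystine transport 0 and 1 of 9. The background was 4.02% higher and 19.8% lower, with a median of -0.41. The coat genes with the highest proximal levels were Clta, a clathrin light chain, at 167 ± 12.4, 167 ± 16.4 and 167 ± 11.7 TPM in PTS1, PTS2 and PTS3, and Ap2m1, of the AP-2 adaptor, at 144 ± 15.7, 141 ± 4.61 and 94.8 ± 8.59. Among the relatives they were Lrp10 and Lrp6, at 125 ± 12.4 and 53 ± 5.57 TPM in PTS2, and among the endosome genes Vps29, a retromer subunit, and Rab11a, a recycling GTPase, at 410 ± 31.1 and 322 ± 23.7 TPM in PTS1.

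Along the proximal tubule, 3 of the 16 coat and adaptor genes left were called higher in PTS1 than in PTS3 and 0 lower, as were 5 and 1 of the 23 endosome genes and 3 and 1 of the 13 relatives, beside 6.14% and 3.97% of all genes. Sh3bgrl3 was 2.37 ± 0.18 log2 units higher. The steepest of the endosome genes was Rab38, a GTPase of lysosome-related organelles, at -3.94 ± 0.39, and of the relatives Vldlr, a lipoprotein receptor, at 2.42 ± 0.29. Rab38 stood at 2.24 ± 0.319 TPM in PTS1, 31.7 ± 2.26 in PTS2 and 48.7 ± 5.06 in PTS3. Of 15 lysosomal genes, 8 were called higher in PTS1 than in PTS3 and 1 lower, with a median of 1.004 against 0.18 for all genes. Lamp1, a lysosomal membrane protein, stood at 1598 ± 123, 2061 ± 281 and 795 ± 128 TPM along the tubule, and Ctsl, a cysteine protease, at 1486 ± 117, 481 ± 32 and 299 ± 29. Hexa, a hexosaminidase subunit, showed the steepest lysosomal drop, from 156 ± 14.9 TPM to 2.92 ± 1.02 and 1.95 ± 1.37. Of 9 endolysosomal ion and cystine transport genes, 3 were called higher in PTS1 than in PTS3 and 0 lower. Clcn4 and Clcn3, of the same exchanger family as Clcn5, had their highest proximal means in PTS2 at 125 ± 14.2 and 65.4 ± 6.59 TPM, below the 146 ± 8.86 of glomeruli for Clcn4 and the 94.6 ± 6.04 of CCD for Clcn3, and the steepest was Slc9a3, the apical sodium-proton exchanger, at 5.24 ± 0.33.

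Several ligands of the receptors were themselves transcribed in the proximal tubule. Of 16 plasma protein ligands, 15 were in the table, and 9 of them were called higher in PTS1 than in PTS3 and 3 lower. Of all genes, 6.14% were called higher and 3.97% lower in that comparison, which also stands beside the counts below. Selenop stood at 3197 ± 670, 2416 ± 134 and 1203 ± 231 TPM in PTS1, PTS2 and PTS3, and Tcn2, the cobalamin carrier transcobalamin, at 2633 ± 102, 1885 ± 204 and 480 ± 56.8. Gc, the vitamin D binding protein, was present in PTS1 at 279 ± 86.8 TPM and stood at 0.605 ± 0.29 in PTS2 and 0.573 ± 0.487 in PTS3, a difference of 7.52 ± 0.27 log2 units between the ends (adjusted p = 6.33e-26). Of 9 vitamin uptake partners, 3 were called higher in PTS1 than in PTS3 and 1 lower. Cyp27b1, which activates vitamin D delivered by megalin, stood at 72.4 ± 12.4 TPM in PTS1 and 0.438 ± 0.223 in PTS2 and was listed at 0 in PTS3. The folate carriers Slc19a1 and Slc46a1 were highest in PTS2, at 208 ± 29.1 and 137 ± 11.6 TPM. Of 11 other scavenger receptors, 2 were called higher in PTS1 than in PTS3 and 4 lower. Cd36, a fatty acid and lipoprotein receptor, had the steepest difference of this list, at -7.02 ± 0.43, and stood at 5.06 ± 6.93, 779 ± 92.3 and 440 ± 70.4 TPM, and Slc22a17, a lipocalin receptor, stood at 22.3 ± 4.4, 26.2 ± 3.62 and 17 ± 4.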

How the data were processed

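Gene expression was measured in 93 microdissected samples, counted as 53 mice by mouse number within each segment. Total RNA was made into cDNA with an ultra-low input kit and libraries were prepared with Nextera XT, per the labels' protocols. The authors deposited TPM per gene for every sample; STAR 2.5.4a and RSEM 1.3.0 are named in the submitters' processing notes, and the genome build is not given in the sources used here. Tubule columns carry 2 decimals and glomerulus columns 1. The 3 10X samples were not analysed here.

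The log2(TPM + 1) values of the pieces of 1 mouse and segment were averaged, and the 53 means were fitted with limma 3.58.1 in R 4.3.3 (empirical Bayes with trend), 1 spread for all groups, two-sided except for the test of proximal over every other group. Genes with at least 1 TPM in at least 3 mice were kept (33793). The labels do not say that equal mouse numbers mark 1 animal across segments, so no block was used. A PTS2 column matched no sample title and entered as a mouse without a number. The code was tested on simulated data.

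Named beyond the 9 members were, per gene list, the 2 genes with the highest proximal mean and the gene with the largest called PTS1 minus PTS3 difference, and the 3 genes nearest to each member. In a second count of the coat list, 2 genes that are not coat or adaptor genes were left out. The members and lists were chosen with earlier results of these data known. Gene positions and transcript lengths came from GENCODE M21 (GRCm38). Alternatives were another pseudocount (0.1 or 5), another filter (5 TPM, or none), median ratio rescaling, quantile normalization, averaging before the log, the mouse as a random block, only the groups compared, the mouse number as a block, and each mouse left out.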

Additional observations from a re-analysis of the deposited data

Results flagged for a closer look

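There were 45 sets of 4 or 5 mice, 1 for each of the 9 genes in PTS2, CTAL, CCD, ATL and OMCD. Of these, 5 held a mouse far from the others by Dixon's gap test on TPM. Its chance rate of about 1 in 20 is for normally distributed values, so it is no fair reference for TPM near 0. Lrp2 in CCD stood at 0.64 TPM in mouse 4, against 0.11 to 0.25 in the others. In that mouse Amn was also the highest of the group, at 3.13 TPM against 0.795 to 1.57, and the proximal list summed to 800 TPM against 214, 280, 682 and 340, whose part was not tested. Cubn in OMCD stood at 1.29 TPM in mouse 1, against 0.11 to 0.12. It is the mean of 2 pieces at 2.35 and 0.22 TPM, so it rests on 1 of them, and this mouse also had the most genes at 1 TPM or more of the group (20867 against 17213 to 19069). Its macrophage and leukocyte list summed to 569 TPM against 144, 132 and 192, and the part of either in the Cubn value was not tested. Amn in OMCD stood at 0.745 TPM in mouse 3, against 0.06 to 0.135, and likewise rests on 1 of 2 pieces (1.35 and 0.14 TPM). Amn in ATL stood at 0.31 TPM in mouse 2 and was listed at 0 in mice 3, 4 and 6, so any value above 0 would have been flagged. Dab2 in ATL stood at 12 TPM in mouse 4, against 1.33 to 1.9, each from 1 piece. In that mouse the macrophage and leukocyte list summed to 433 TPM, against 12.3 to 24.6 in the other ATL mice, and its part in the Dab2 value was not tested. PTS2, the proximal group with enough mice, held none of the 5 values, and 4 of them are at 1.29 TPM or less.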

How the results depend on the processing

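Counts of called genes among the 9 changed by more than 1.5 times in these cases. A pseudocount of 0.1 gave 4 calls for glomerulus minus other tubule (2 in the report), and a pseudocount of 5 gave 2 for PTS1 minus PTS3 (4). Quantile normalization gave 0 for PTS2 minus PTS3 (3). With the mouse number as replicate block the glomerulus count was 1, Clcn5 there being -0.98, and leaving out each mouse in turn gave 1 to 3: Clcn5 was -0.93 without glomerulus mouse 3, and Cubn was called without glomerulus mouse 2 (1.03) or DTL3 mouse 2. Ocrl in PTS2 minus PTS3 was called at 1.08 without PTS3 mouse 1 and at 1.38 with a pseudocount of 0.1. With the thin limbs left out the glomerulus count was 4. The labels do not say whether equal mouse numbers mark 1 animal. Mice of equal number were compared by the correlation, over the genes tested, of their log2 deviations from the group means. It ran from -0.014 to 0.089 across the proximal groups. Over all 290 pairs of groups and number it ran from -0.22 to 0.28 (19 above 0.1). Over the 39 pairs with the glomerulus it ran from -0.097 to 0.28 (5 above 0.1). Pairs of unequal number were not computed for reference, and the numbers were not used as pairs in the report. The replicate block changed no other call of the 9 genes.

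Changes of sign were all in differences not called in the report. Clcn5 in PTS1 minus PTS2 was 0.13 (median ratio), 0.14 (quantile), 0.11 (replicate block) and -0.14 to 0.11 without each mouse. Clcn5 in proximal minus other tubule was 0.63 (median ratio) and 0.94 (quantile). Amn in glomerulus minus other tubule, -0.01 in the report, was 0.02 (pseudocount 0.1), 0.14 (averaging before the log), 0.00 (random block), 0.19 (no thin limbs) and -0.04 to 0.05 without each mouse. Folr1 there was 0.79 without thin limbs and Lrp2 -0.10 (quantile). Cubn in PTS2 minus PTS3 was -0.05 (quantile). For CNT, CCD and OMCD minus the thick limb and DCT, Lrpap1 was -0.22 (median ratio) and -0.03 (quantile), Cubn -0.13 (quantile) and -0.01 to 0.12 without each mouse, and Amn -0.22 to 0.10 without each mouse. Folr1 in proximal over every other group was 0.44 (median ratio). The cause was not tested.

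Counts over all genes moved most with the pseudocount of 0.1 or 5: 1811 to 8926 for PTS1 minus PTS2 (3233 in the report), 763 to 2640 for PTS2 minus PTS3 (1588), 1813 to 8631 for PTS1 minus PTS3 (3417), 4325 to 16746 for proximal minus other tubule (8041), 3685 to 19572 for glomerulus (10202) and 1503 to 7669 for CNT, CCD and OMCD minus the thick limb and DCT (2831). The count for proximal over every other group ran from 178 (pseudocount 0.1) to 426 (quantile) around 247, and that for differences among groups from 17910 (filter of 5 TPM) to 38341 (no filter) around 31732, where the number of genes tested differs. Values of a few TPM rest on an unknown number of reads.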

Other observations

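Pieces of 1 mouse could be set beside the spread between mice. For Lrp2 the SD of log2(TPM + 1) between pieces of a mouse was 0.108, 0.122 and 0.113 in PTS1, PTS2 and PTS3, and between mice 0.102, 0.11 and 0.136. For Cubn in PTS1 pieces differed by 0.138 and mice by 0.339, and for Amn in PTS2 by 0.229 and 0.378. For Ocrl in PTS3, at the lowest levels, pieces differed by 0.55 and mice by 0.338. The windows before the starts of the other matched genes ranged from 36.8% G and C at the outer start of Dab2 to 60.8% at Lrpap1. GTTAAT was found before the inner start of Dab2 and TATAAA before the inner start of Clcn5. The GC box was found before Lrpap1, Ocrl and the outer start of Clcn5.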
